A study of Homo sapiens with 30 samples.

Results

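ID1, ID2, ID3 and ID4 encode the 4 human inhibitors of DNA binding, and their transcripts were followed in cells treated with Omomyc, a miniprotein derived from the basic helix-loop-helix leucine zipper domain of MYC. The members were chosen by name, and their 4 rows were taken from a table of 57992 genes in 30 RNA-Seq libraries. The libraries came from HCT116, a colorectal carcinoma cell line, either untreated or given Omomyc at 2 or 10 μM, and from Ramos, a cell line of Burkitt lymphoma with a MYC translocation, either untreated or given 0.5 or 2.5 μM. RNA was taken 6 or 24 h after Omomyc. Each of the 10 groups held 3 libraries, and no transgene or deletion is named for either line. The lower HCT116 dose is 2 μM in the labels and 2.5 μM in the methods of the study, and a time tag reads 4 h for the libraries titled 24 h. The labelled dose and the titled time are used here. In HCT116 cells Omomyc was given with ProteoJuice, a protein delivery reagent, and none is described for the RNA of Ramos cells. Whether the untreated HCT116 cells received it is not stated, and each line had 1 untreated group with no time of its own, so Omomyc, the reagent and handling cannot be told apart.

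Levels are in RPKM, a read number divided by gene length and by the reads of the library, with no counts beside them. The depth is therefore unknown, and no counting intervals are given. The RPKM of a library summed to 593633 to 1051040 in HCT116 cells and to 783788 to 973736 in Ramos cells. The highest sum belonged to HCT116 replicate 3 at 10 μM and 6 h, and counts there that change without it are given beside the result. The log2 values of replicates correlated at 0.973 to 0.996 over 30 pairs, and 0 pairs were identical. Of 10 epithelial markers, 8 reached 1 RPKM in HCT116 cells, with a summed level of 1544 to 2481 RPKM, while VIL1 and CDX1, markers of differentiated gut epithelium, stayed below it. Ramos cells had all 9 B cell markers, with a summed level of 2801 to 3231 RPKM, and 0 of the 10 epithelial markers. The sum of the B cell markers was 1.02 to 3.84 RPKM in HCT116 cells.

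ID proteins have a helix-loop-helix domain without the basic region that contacts DNA. They pair with E proteins, the broadly expressed basic helix-loop-helix factors encoded by TCF3, TCF4 and TCF12, and hold them off the E box, the CANNTG sequence to which such dimers bind. In this way they restrain differentiation and cell cycle inhibitors, and they are high in many proliferating epithelial cells. Bone morphogenetic proteins (BMPs) are their best known inducers, acting through receptor kinases and the SMAD transducers. In B cells ID3 and TCF3 form a known regulatory pair, and ID3 is often mutated in Burkitt lymphoma. MYC itself binds the E box CACGTG as a dimer with MAX.

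The members lie on 4 chromosomes. In GENCODE 29 (GRCh38), ID1 (ENSG00000125968) is at chr20:31605283-31606515 on the plus strand and ID2 (ENSG00000115738) at chr2:8678845-8684453 on the plus strand. ID3 (ENSG00000117318) is at chr1:23557918-23559794 on the minus strand and ID4 (ENSG00000172201) at chr6:19837386-19840684 on the plus strand. ID2 overlaps ID2-AS1 and ID4 overlaps AL022068.1 on the opposite strand, and whether the counting used strand is not stated. ID2-AS1 reached at most 0.835 RPKM and was listed at 0 in 13 libraries. A near copy of ID2, ID2B, was listed at 0 in all 30 libraries. All 4 members were matched in the RefSeq promoters of GRCh38.p14. The 250 bases before each RefSeq start are shown, 5′ to 3′, because Omomyc and MYC act at E boxes and because 3 of the 4 genes fell together in HCT116 cells in every comparison with untreated cells. The windows are chr20:31605039-31605288 on the plus strand for ID1 and chr2:8681806-8682055 on the plus strand for ID2. For ID3 the window is chr1:23559502-23559751 on the minus strand and for ID4 chr6:19837120-19837369 on the plus strand. The RefSeq starts are not those of GENCODE above, and the windows of ID2 and ID3 lie within the GENCODE bounds of the gene. Capitals mark each CANNTG match.
ID1: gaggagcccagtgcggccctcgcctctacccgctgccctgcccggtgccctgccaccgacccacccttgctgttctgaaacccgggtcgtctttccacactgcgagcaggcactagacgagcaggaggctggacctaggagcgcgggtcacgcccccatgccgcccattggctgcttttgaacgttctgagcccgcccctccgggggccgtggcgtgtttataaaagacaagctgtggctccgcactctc
ID2: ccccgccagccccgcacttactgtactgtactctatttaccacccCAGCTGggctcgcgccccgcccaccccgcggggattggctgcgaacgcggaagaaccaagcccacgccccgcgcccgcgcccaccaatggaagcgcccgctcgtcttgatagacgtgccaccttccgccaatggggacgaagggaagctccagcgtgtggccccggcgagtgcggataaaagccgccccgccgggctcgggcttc
ID3: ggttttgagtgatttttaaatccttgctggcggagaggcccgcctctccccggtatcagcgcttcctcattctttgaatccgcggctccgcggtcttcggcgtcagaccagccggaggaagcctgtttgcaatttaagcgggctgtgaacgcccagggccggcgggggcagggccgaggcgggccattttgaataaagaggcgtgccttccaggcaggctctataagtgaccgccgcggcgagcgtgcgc
ID4: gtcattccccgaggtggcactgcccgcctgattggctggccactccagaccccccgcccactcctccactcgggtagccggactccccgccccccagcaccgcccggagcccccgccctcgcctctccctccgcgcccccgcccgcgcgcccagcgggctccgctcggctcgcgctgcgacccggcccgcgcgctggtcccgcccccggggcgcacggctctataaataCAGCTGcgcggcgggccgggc

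None of the 4 windows held CACGTG, which 6.34% of 35116 promoter windows of this length held on either strand. CANNTG, which includes CACGTG, was in 61.8% of all windows. It occurred in 2 of the 4, as CAGCTG starting 205 bases before the RefSeq start of ID2 and as CAGCTG starting 21 bases before that of ID4. ID1 and ID3 had none. CCAAT, a common promoter element, was found 3 times in the ID2 window and 1 time in those of ID1 and ID4, against 32.0% of all windows with at least 1 match. TATAAA was present in ID1, where its 2 matches overlap on opposite strands, and in ID4, against 10.7% of all windows. Of a pair of short sequences linked to SMAD binding, CAGAC had 1 match in ID3 and 1 in ID4 (38.0% of all windows), and GGCGCC had none in the 4 windows (16.4% of all windows). Both strands were searched for every sequence, and a match shows only that these letters are present.

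**Figure D1:**
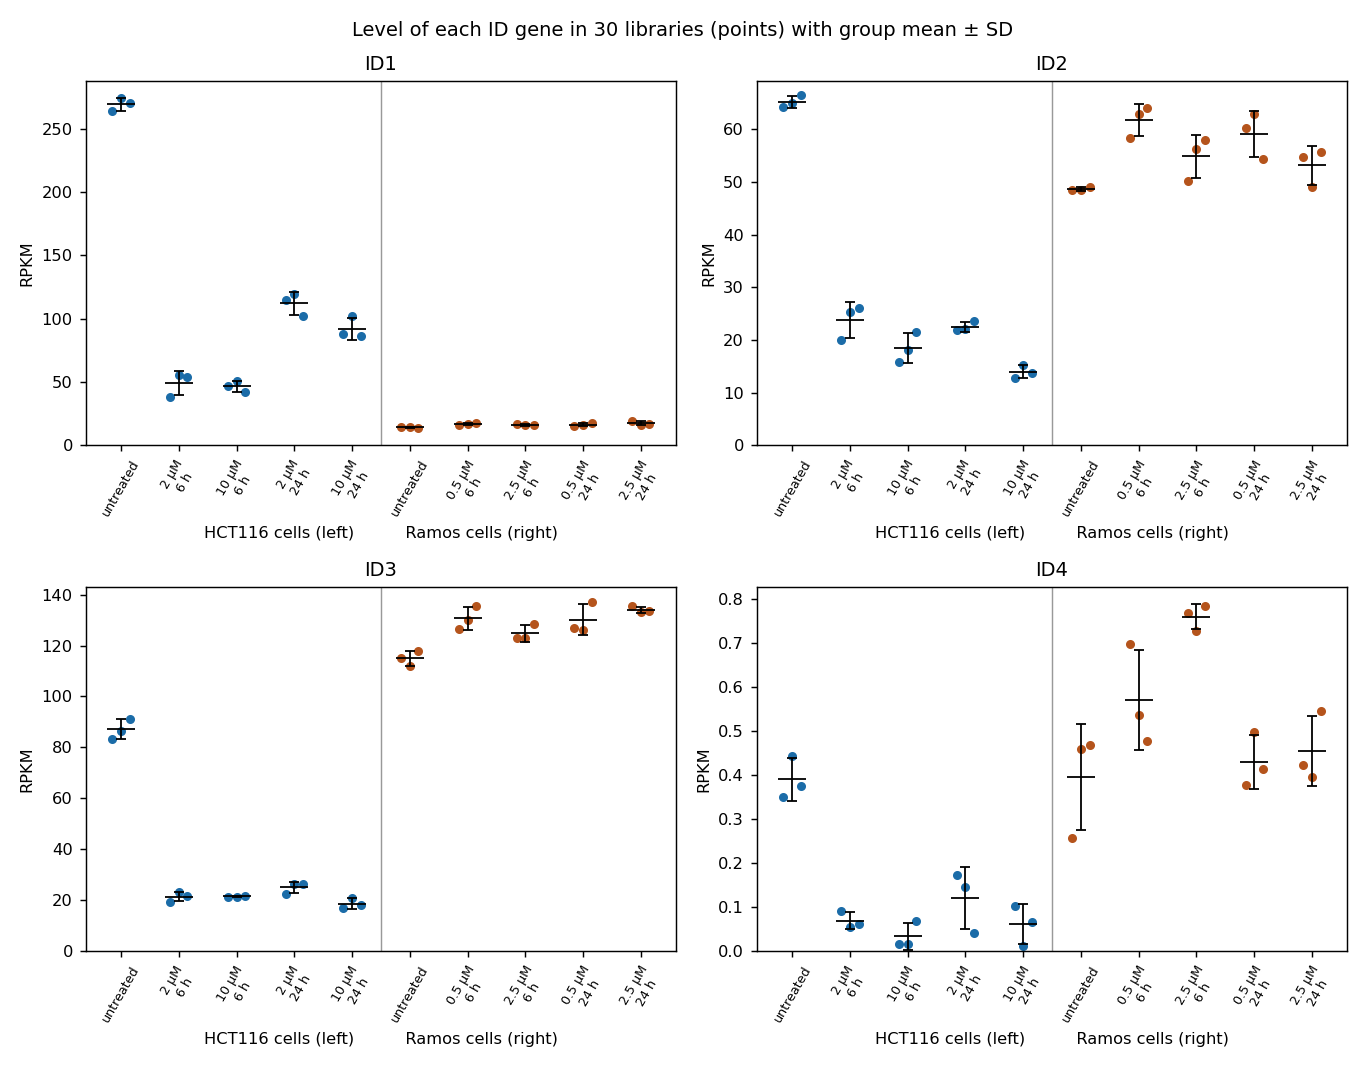
Level in RPKM of ID1, ID2, ID3 and ID4 (y axes, linear, from 0) in each of the 30 libraries (points) by treatment group (x axes), with the group mean and SD of 3 libraries as bars; HCT116 groups are blue and Ramos groups orange. ID1, ID2 and ID3 were lower in every Omomyc group of HCT116 cells than in the untreated cells, and the ID4 axis ends below 1 RPKM.

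ID1 was the most abundant member in untreated HCT116 cells and, of the 3 members tested, the one with the largest fall at 6 h and the smallest at 24 h. Its level was 264, 274 and 271 RPKM in the 3 untreated libraries and 38.3, 55.7 and 54.2 RPKM after 6 h with 2 μM Omomyc. At 10 μM and 6 h it was 47.0, 50.8 and 41.8 RPKM. These 6 libraries lay far below the untreated ones, and the doses overlapped. After 24 h ID1 stood at 115, 119 and 102 RPKM with 2 μM and at 87.7, 102 and 86.1 RPKM with 10 μM, between the 6 h and the untreated libraries and overlapping neither. ID1 therefore had 18.3% of its untreated mean at 2 μM and 17.3% at 10 μM after 6 h, and 41.6% and 34.1% after 24 h. On the log2(RPKM + 0.5) scale it fell by 2.46 ± 0.12 (SE, adjusted p = 3.62e-06) and 2.53 ± 0.10 (8.16e-05) at 6 h, and by 1.27 ± 0.06 (2.02e-05) and 1.55 ± 0.07 (1.59e-06) at 24 h. In bulk RNA, fewer cells that express a gene and less RNA per cell cannot be told apart.

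ID2 and ID3 fell as well, and unlike ID1 they were not called higher at 24 h than at 6 h. ID2, a member with known roles in differentiation and cell cycle control, had 64.2, 65.0 and 66.5 RPKM in untreated HCT116 cells. It had 19.9, 25.3 and 26.1 RPKM at 2 μM and 15.8, 18.0 and 21.5 RPKM at 10 μM after 6 h. After 24 h it had 21.8, 22.1 and 23.6 RPKM at 2 μM and 12.8, 15.3 and 13.7 RPKM at 10 μM. No treated library reached 27 RPKM, and the 10 μM libraries at 24 h were the lowest of all. The log2 fold change of ID2 was -1.45 ± 0.10 and -1.80 ± 0.12 at 6 h and -1.51 ± 0.05 and -2.19 ± 0.07 at 24 h for the lower and the higher dose, with adjusted p from 2.98e-07 to 0.000316.

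ID3, the member linked to TCF3 in B cells, was the second most abundant in untreated HCT116 cells, with 83.4, 86.5 and 91.3 RPKM. It had 19.4, 23.0 and 21.5 RPKM at 2 μM and 21.3, 21.2 and 21.8 RPKM at 10 μM after 6 h. After 24 h with 2 μM it had 22.5, 26.3 and 26.2 RPKM. Every one of these libraries was at or below 26.3 RPKM, and the untreated range began at 83.4 RPKM. The log2 fold change was -2.01 ± 0.08 and -2.00 ± 0.09 at 6 h and -1.78 ± 0.07 at 24 h with 2 μM, with adjusted p of 8.73e-07, 0.000105 and 4.65e-06. With 10 μM at 24 h the mean was 18.6 ± 2.14 RPKM (SD, n = 3), or 21.4% of the untreated mean.

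ID4, known mainly from neural and mammary cells, was near the floor of the table in both lines. Untreated HCT116 cells had 0.350, 0.443 and 0.375 RPKM, and the 12 treated libraries had 0.0121 to 0.173 RPKM. The ranges did not overlap, yet ID4 missed the minimum mean of 0.5 RPKM in all 4 comparisons and was not tested there. When the filter was left out, the log2 fold changes of ID4 were -0.65, -0.74, -0.53 and -0.67 for 2 μM 6 h, 10 μM 6 h, 2 μM 24 h and 10 μM 24 h, with adjusted p of 0.00355, 0.00664, 0.0398 and 0.00716. Every HCT116 value of ID4 lay below the 0.5 RPKM added before the log2, which shrinks these changes, so their size cannot be set beside those of the other members. In the same order its mean was 17.5%, 8.57%, 30.8% and 15.5% of the untreated mean. AL022068.1, on its opposite strand, was also lower, at 0.699 to 0.981 RPKM in untreated and 0 to 0.326 RPKM in treated HCT116 libraries, and its part in the ID4 values was not tested.

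All 3 members that passed the filter fell in each of the 4 HCT116 comparisons. Among all genes tested, 31.8% of 14550 fell at 2 μM and 21.2% of 14785 at 10 μM after 6 h, and 10.8% of 14886 and 15.7% of 14827 after 24 h. In the same order 15.5%, 8.84%, 16.6% and 19.5% rose. Risers were thus 32.7%, 29.4%, 60.6% and 55.3% of the genes called, and with an equal sum per library 6.76%, 4.28%, 23.0% and 20.4%, while the members kept their direction. The 4 members were lower without overlap in every comparison, against 38.5%, 34.9%, 18.7% and 22.7% of the genes tested. The 4 Omomyc groups share the 3 untreated libraries, so these comparisons are not independent. For each member and comparison the two-sided exact permutation test over libraries gave p = 0.1, the smallest that 3 libraries against 3 allow. Without HCT116 replicate 3 at 10 μM and 6 h, the count of members that fell there was again 3.

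**Figure D2:**
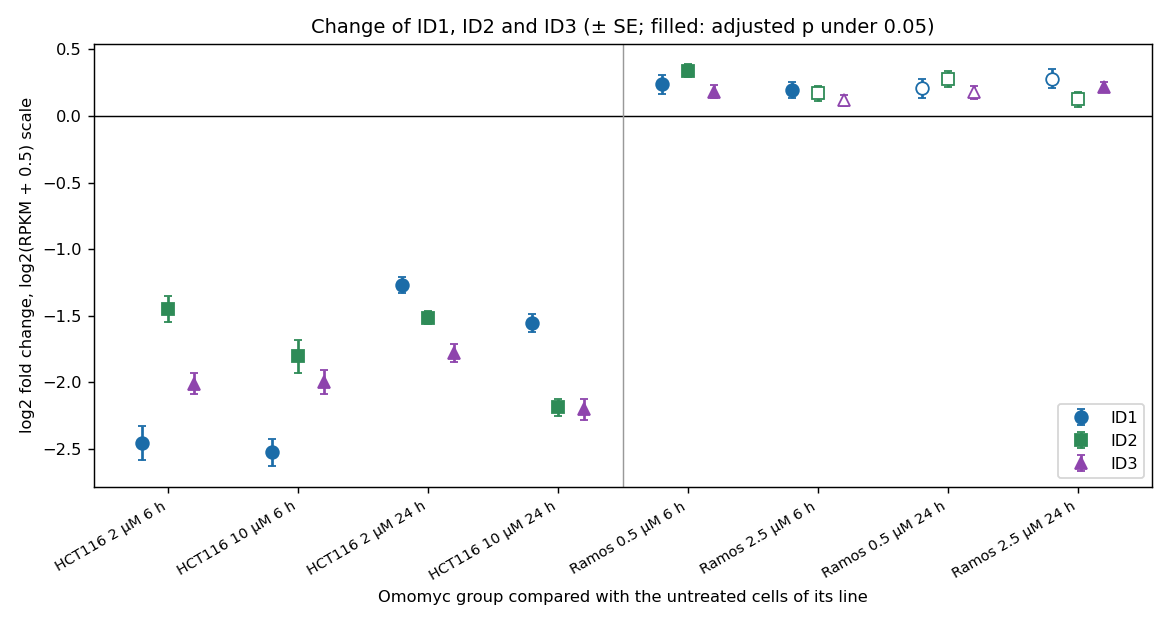
Log2 fold change of ID1, ID2 and ID3 (y axis, log2(RPKM + 0.5) scale) in each Omomyc group compared with untreated cells of the same line (x axis); bars are the SE of the limma fit, and filled symbols have an adjusted p under 0.05. The 12 HCT116 values lie between -2.53 and -1.27, and the 12 Ramos values between 0.12 and 0.34.

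In Ramos cells the members were slightly higher with Omomyc, and only some of these differences passed the test. ID3 was the most abundant member there, with 115, 112 and 118 RPKM in untreated cells and 126, 130 and 136 RPKM after 6 h with 0.5 μM. At 2.5 μM and 6 h it had 123, 123 and 129 RPKM, and after 24 h 127, 126 and 137 RPKM at 0.5 μM and 135, 133 and 134 RPKM at 2.5 μM. All 12 treated libraries thus lay above the highest untreated one, the lowest of them at 123 RPKM. The log2 fold change of ID3 was 0.18 ± 0.05 (adjusted p = 0.0196) at 0.5 μM 6 h and 0.22 ± 0.04 (0.0178) at 2.5 μM 24 h. It was 0.12 (0.0566) at 2.5 μM 6 h and 0.18 (0.784) at 0.5 μM 24 h, and neither passed.

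ID2 had 48.4, 48.4 and 49.0 RPKM in untreated Ramos cells and 58.3, 62.8 and 64.0 RPKM after 6 h with 0.5 μM, with a log2 fold change of 0.34 ± 0.05 (adjusted p = 0.00178). Its other 9 treated libraries had 49.0 to 62.9 RPKM, and only the 2.5 μM 24 h group, whose lowest library had 48.98 RPKM, overlapped the untreated ones, whose highest had 49.01 RPKM. The values of ID2 in those groups were 0.17, 0.28 and 0.12 with adjusted p of 0.0565 (2.5 μM 6 h), 0.718 (0.5 μM 24 h) and 0.230 (2.5 μM 24 h). ID1 was low in this line, at 14.3, 14.5 and 13.7 RPKM untreated and 15.3 to 18.9 RPKM over the 12 treated libraries. It rose at 6 h, by 0.24 ± 0.07 at 0.5 μM (adjusted p = 0.0350) and 0.19 ± 0.06 at 2.5 μM (0.0433). These calls were lost in 10 and 11 of 16 alternatives, the second with any 1 library left out (adjusted p = 0.0551 to 0.160). At 24 h its log2 fold change was 0.21 at 0.5 μM and 0.28 at 2.5 μM, with adjusted p of 0.819 and 0.0611.

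ID4 in Ramos cells had 0.256, 0.458 and 0.469 RPKM untreated and 0.767, 0.727 and 0.783 RPKM at 2.5 μM 6 h. Among the comparisons with untreated cells it passed the filter only in that one, through the treated group where it was high, and its log2 fold change was 0.50 ± 0.19 (adjusted p = 0.0863). The other 9 treated libraries had 0.376 to 0.697 RPKM. AL022068.1 moved the same way, from 1.05 to 1.76 RPKM untreated to 2.63 to 3.56 RPKM at 2.5 μM 6 h.

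The counts in Ramos cells were small. Of 3 members tested at 0.5 μM 6 h, 3 rose, where 13.8% of 13614 genes did, and of 4 tested at 2.5 μM 6 h, 1 rose, where 17.3% of 13595 genes did. At 24 h none of 3 members rose with 0.5 μM, where 0.0146% of 13674 genes did, and 1 of 3 rose with 2.5 μM, where 3.3% of 13607 genes did. ID1 and ID3 were higher without overlap in all 4 Ramos groups, ID2 in 3 and ID4 in the 2 groups at 6 h, against 23.4%, 26.3%, 7.63% and 20.6% of genes at 0.5 μM 6 h, 2.5 μM 6 h, 0.5 μM 24 h and 2.5 μM 24 h. For the 0 calls at 0.5 μM 24 h, limma's unadjusted p was under 0.05 for all 3 members and for 763 genes in all, and by the exact permutation test each had p = 0.1. An equal sum per library raised the risers among the genes called from 58.7% to 79.8% at 0.5 μM 6 h, from 61.8% to 85.2% at 2.5 μM 6 h and from 71.6% to 97.4% at 2.5 μM 24 h. The call of ID3 was lost in 6 of 16 alternatives at 0.5 μM 6 h and in 8 of 16 at 2.5 μM 24 h, and that of ID2 at 0.5 μM 6 h in none. The direction was upward in 192 of 192 alternative fits of ID1, ID2 and ID3. All 4 Ramos groups share the 3 untreated libraries, so neither these comparisons nor their alternative fits are independent.

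The difference between the lines was tested as an interaction, in which the Ramos change at 2.5 μM was subtracted from the HCT116 change at the same time. All 12 values for ID1, ID2 and ID3 were negative and passed the test, ranging from -1.55 ± 0.09 (ID1, 2 μM, 24 h) to -2.72 ± 0.11 (ID1, 10 μM, 6 h). Of all genes tested, 28.4% had a negative interaction that passed at 2 μM and 22.2% at 10 μM after 6 h, and 9.51% and 12.9% after 24 h. Without the filter ID4 gave -1.15 (adjusted p = 0.000487) and -1.24 (0.000610) at 6 h and -0.63 (0.0645) and -0.77 (0.0161) at 24 h for 2 and 10 μM. The doses were not equal between the lines, and line and delivery reagent cannot be told apart.

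Time separated ID1 from the other members in HCT116 cells. ID1 was higher at 24 h than at 6 h by 1.19 ± 0.13 at 2 μM (adjusted p = 0.000502) and by 0.97 ± 0.12 at 10 μM (0.00476), or 2.27-fold and 1.98-fold. Of all genes, 30.9% of 14775 were higher at 24 h at 2 μM and 5.8% of 14920 at 10 μM, and 40.5% and 30.5% were higher without overlap. ID2 gave -0.07 and -0.38 (adjusted p = 0.627 and 0.122), and ID3 gave 0.23 and -0.20 (0.0745 and 0.286), for the lower and the higher dose. At 10 μM both were lower at 24 h without overlap (exact permutation p = 0.1 in both), and limma's unadjusted p was 0.0251 for ID2 and 0.117 for ID3. The share of all genes lower without overlap there is not given. In Ramos cells 1 of 4 members tested was called between the times at 2.5 μM, ID3 with 0.10 ± 0.03 (adjusted p = 0.0457), where 12.7% of 13564 genes were higher. That call was lost in 10 of 16 alternatives. At 0.5 μM the 3 members had log2 differences of -0.06 to -0.01 with adjusted p of 0.510 to 0.931, and none was called, where 25.4% of 13611 genes were. There limma's unadjusted p was above 0.05 for all 3.

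Between doses, 1 member passed the test. ID2 in HCT116 cells at 24 h was 0.67 ± 0.08 lower on the log2 scale at 10 μM than at 2 μM (adjusted p = 0.0116), and it was among 6 genes, 0.0399% of 15039, that were lower. Its call was lost without the filter, without the trend on mean expression, with all groups of the line in 1 fit and without replicate 1 at 10 μM (adjusted p = 0.0522), with a log2 difference of the same sign. ID3 and ID1 had -0.42 and -0.29 in that comparison, with adjusted p of 0.178 and 0.255 and unadjusted p of 0.00127 and 0.00586, and all 3 were lower at 10 μM without overlap, as were 10.6% of genes. Whether ID2 differed from ID1 and ID3 in this was not tested. At 6 h limma called none of the members and 0 of 14601 genes between the HCT116 doses, with 1242 genes at an unadjusted p under 0.05. ID2 then had -0.36 (adjusted p = 0.588), ID1 -0.07 and ID3 0.01. In Ramos cells no member was called between 2.5 and 0.5 μM at 6 h (4 tested) or at 24 h (3 tested), where 0.429% of 13511 and 4.25% of 13629 genes were. ID2 had an unadjusted p of 0.0183 at 6 h and 0.0448 at 24 h.

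Before treatment the lines differed most in ID1. ID1 was 19.0-fold higher in untreated HCT116 than in untreated Ramos cells (log2 difference 4.20 ± 0.04, adjusted p = 5.62e-10), and ID2 was 0.42 ± 0.04 higher (2.22e-05). ID3 was 0.40 ± 0.05 lower in HCT116 cells (adjusted p = 0.000124), and with each library scaled to an equal sum the sign turned, to 0.18 (0.0921). All 3 tested members differed, as did 84.6% of 15647 genes. ID4 was not tested, and its means were 0.389 and 0.394 RPKM.

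The order of the 10 groups differed between the members. For ID1 the 5 HCT116 groups came first, led by the untreated cells at 269.6 ± 5.14 RPKM (SD, n = 3), and the 5 Ramos groups followed at 14.2 to 17.3 RPKM. Among neighbours in that order, the 2 HCT116 groups at 6 h overlapped, as did the 4 treated Ramos groups. For ID2 untreated HCT116 cells came first at 65.2 ± 1.16 RPKM, then all Ramos groups at 48.6 to 61.7 RPKM, each overlapping the next, then the treated HCT116 groups at 14.0 to 23.8 RPKM. For ID3 the Ramos groups led at 115 to 134 RPKM, the treated ones overlapping in order, untreated HCT116 cells stood apart at 87.1 ± 3.97 RPKM, and the treated HCT116 groups ended the order at 18.6 to 25.0 RPKM. The 2 lowest neighbouring pairs of ID3 overlapped. For ID4 the 2.5 μM 6 h Ramos group stood above the rest at 0.759 ± 0.0286 RPKM, and the treated HCT116 groups were the lowest.

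The make-up of the ID transcripts, which does not depend on how libraries are scaled, also shifted in HCT116 cells. ID1 made up 63.8% ± 0.644 (SD, n = 3) of the summed RPKM of the 4 members in untreated cells. Its share was 52.0% ± 2.35 and 53.8% ± 4.07 at 6 h with 2 and 10 μM, and 70.1% ± 2.59 and 73.8% ± 0.915 at 24 h. The untreated libraries lay between those at 6 h and those at 24 h with no overlap. ID2 took 15.4% of the sum in untreated cells, 25.2% at 2 μM 6 h and 11.2% at 10 μM 24 h. In Ramos cells ID3 held 62.3% to 65.4% and ID1 7.95% to 8.46% in every group mean.

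Differences between members within a library gave the same picture. Against untreated HCT116 cells, log2 ID1 minus log2 ID2 changed by -1.01 ± 0.06 and -0.72 ± 0.19 (SE) at 6 h and by 0.25 ± 0.10 and 0.64 ± 0.04 at 24 h. ID1 minus ID3 changed by -0.45 and -0.53 at 6 h and by 0.52 and 0.65 at 24 h. In these 8 differences the libraries did not overlap, and each two-sided exact permutation p was 0.1, the smallest possible. ID2 minus ID3 changed by 0.56 at 2 μM 6 h and 0.27 at 2 μM 24 h (p = 0.1 in both by the exact permutation test), and by 0.19 and 0.01 at 10 μM, where the libraries overlapped (p = 0.3 and 0.6). In Ramos cells the 12 such differences were between -0.10 and 0.16.

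**Figure D3:**
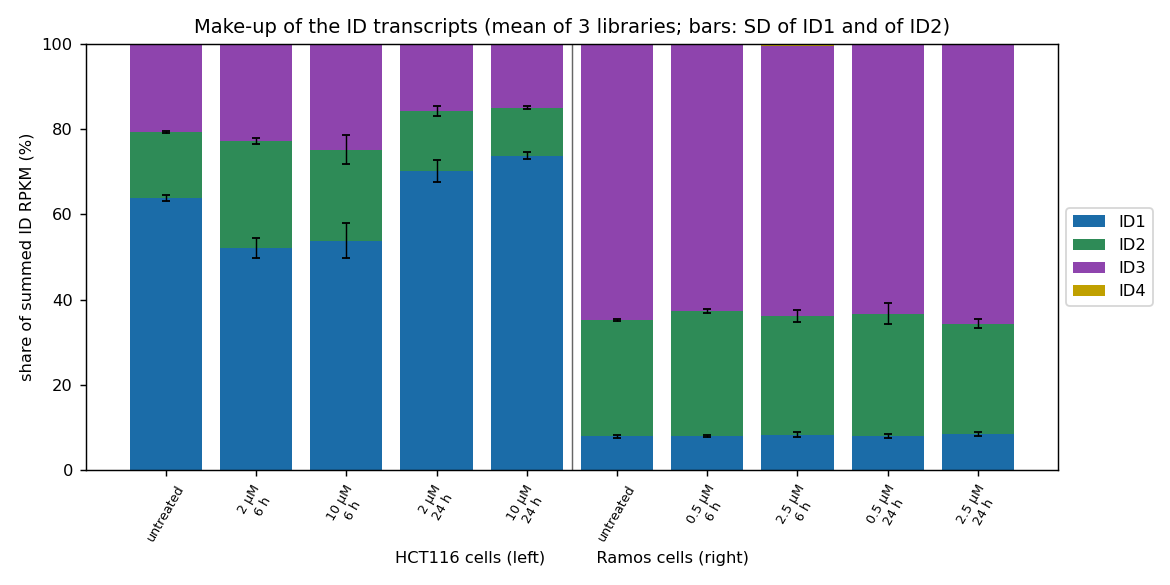
Share in percent of the summed RPKM of ID1, ID2, ID3 and ID4 (y axis, from 0) held by each member in the 10 groups (x axis, mean of 3 libraries); error bars are the SD of the ID1 share and of the ID2 share, drawn at the top of each segment. The ID1 share in HCT116 cells was 63.8% untreated, 52.0% to 53.8% at 6 h and 70.1% to 73.8% at 24 h, while ID4 was too low to be seen.

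The E protein genes as a group changed less than the ID genes in HCT116 cells, from a summed level of 80.0 ± 0.277 RPKM (SD, n = 3) in untreated cells to 63.7 to 76.8 RPKM in the treated groups. TCF12, an E protein, had 34.0, 32.3 and 33.4 RPKM in untreated cells and 22.4, 22.5 and 21.7 RPKM at 10 μM 6 h. It fell in all 4 comparisons, by 0.45, 0.57, 0.17 and 0.37 on the log2 scale (2 μM 6 h, 10 μM 6 h, 2 μM 24 h, 10 μM 24 h), and under 3 other scalings as well. TCF3, which encodes E12 and E47, had 45.9 to 47.5 RPKM in untreated cells and was called in none of the 4, with log2 fold changes of -0.22 to 0.02. With an equal sum per library it was lower at 2 μM 6 h (-0.38) and at 10 μM 24 h (-0.28). TCF3 had 55.2, 40.6 and 28.7 RPKM at 10 μM 6 h, the lowest in the replicate 3 that stood apart, and its log2 fold change was 0.02 without it. TCF4 was at or below 0.171 RPKM in every HCT116 library.

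In Ramos cells the E proteins moved in opposite directions. TCF3 had 110, 105 and 121 RPKM untreated and 162, 166 and 166 RPKM at 2.5 μM 6 h, a rise of 0.55 ± 0.05 (adjusted p = 0.000224). It also rose at 0.5 μM 6 h (0.45) and at 2.5 μM 24 h (0.35, lost with quantile normalization). TCF4, a factor of B cell and plasmacytoid development, had 32.9, 34.7 and 31.7 RPKM untreated and 22.3 to 23.9 RPKM in the 6 libraries at 6 h. It fell by 0.51 at 0.5 μM and 0.50 at 2.5 μM. At 24 h it had 30.7 to 33.4 RPKM and was not called. TCF12 fell by 0.32 at 2.5 μM 6 h, a call lost with an equal sum per library.

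Set against each other, the ID transcripts exceeded the E protein transcripts 5.28 ± 0.105 to 1 (SD, n = 3) in untreated HCT116 cells. The ratio of the summed RPKM was 5.16, 5.34 and 5.34 in those libraries. At 6 h it was 1.21 to 1.44 with 2 μM and 1.08 to 1.69 with 10 μM, and at 24 h 1.95 to 2.27 and 1.59 to 2.03. No treated library came near the untreated ones. The log2 ratio changed by -1.97 ± 0.08, -1.93 ± 0.19, -1.34 ± 0.07 and -1.56 ± 0.10 in that order, each with a two-sided exact permutation p of 0.1, the smallest possible. Untreated Ramos cells had a ratio of 1.03 ± 0.0183. The treated Ramos groups had mean ratios of 0.940 (2.5 μM 6 h) to 1.24 (0.5 μM 24 h). Of these the 2.5 μM 6 h group lay below the untreated libraries and the 0.5 μM 24 h group above them without overlap (exact permutation p = 0.1 in both).

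**Figure D4:**
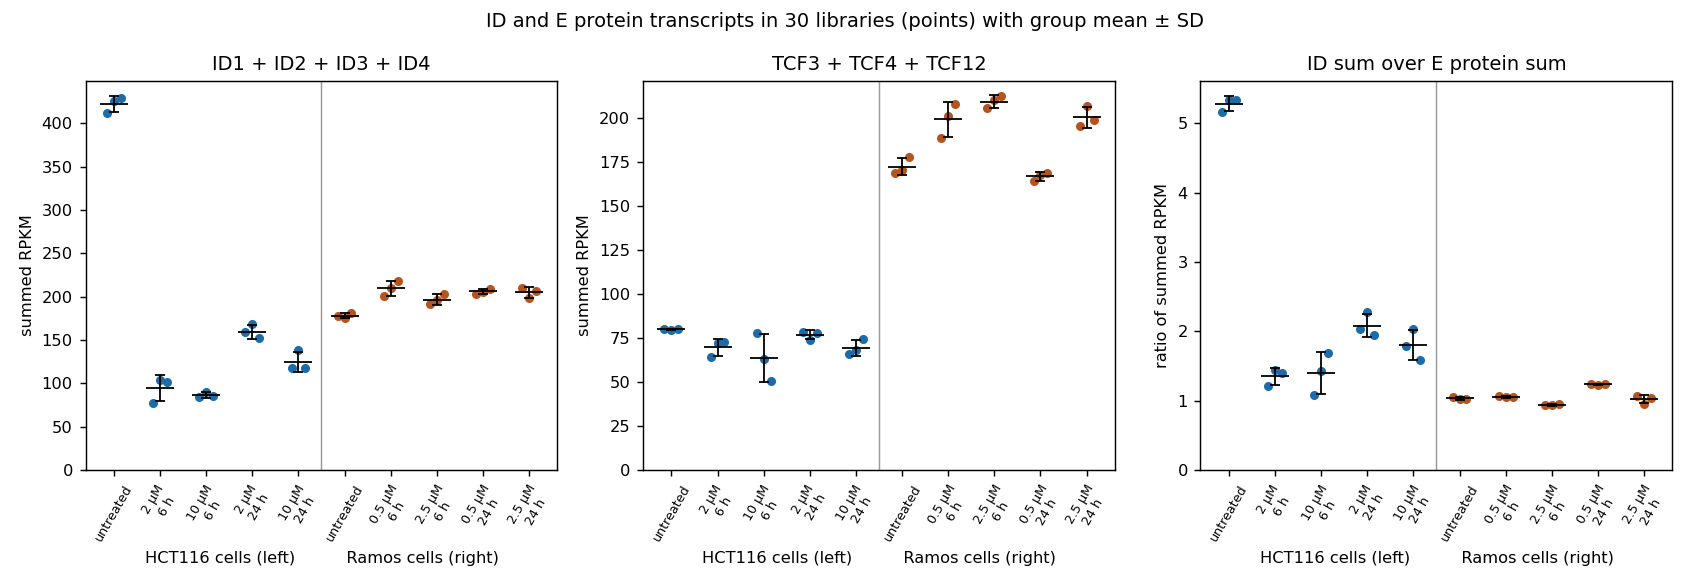
Summed RPKM of ID1 to ID4 (left panel), summed RPKM of the E protein genes TCF3, TCF4 and TCF12 (middle panel) and their ratio (right panel) in each of 30 libraries (points) by group (x axes), with group mean and SD as bars; all y axes start at 0. The ratio was 5.16 to 5.34 in untreated HCT116 libraries and at most 2.27 in treated ones, and stayed between 0.931 and 1.24 in Ramos cells.

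The genes around the ID family were read from lists of the BMP pathway. The SMAD transducers, which carry the signal to the nucleus, were SMAD1, SMAD5, SMAD9 and SMAD4. All 4 were lower at 6 h in HCT116 cells at either dose, with a median log2 fold change of -0.46 and -0.51 against -0.12 and -0.11 over all genes, and 1 of 4 was lower at 24 h at either dose. Among all genes 31.8% and 21.2% fell at 6 h and 10.8% and 15.7% at 24 h. The counts moved with the scaling, to 3 and 2 at 6 h and 2 and 2 at 24 h with median ratios, 3 and 3 and then 2 and 2 with quantiles, and 4 and 4 and then 3 and 3 with an equal sum (2 and 10 μM each). SMAD4, the shared partner of these SMADs, fell from 38.0 ± 1.20 to 26.1 ± 4.99 RPKM at 10 μM 6 h, and SMAD9 fell from 1.35 ± 0.0300 to 0.471 ± 0.0271 RPKM (SD, n = 3). SMAD9 was thus near the floor in that group and passed the filter only through the untreated group, where it was high.

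Of 8 BMP feedback and target genes tested other than the ID genes, none rose and 5, 4, 3 and 5 fell at 2 μM 6 h, 10 μM 6 h, 2 μM 24 h and 10 μM 24 h, where 31.8%, 21.2%, 10.8% and 15.7% of all genes fell. In that order 3, 4, 4 and 6 fell with median-ratio scaling, 3, 3, 4 and 5 with quantile normalization and 7, 7, 4 and 7 with an equal sum. RGMB, a BMP co-receptor gene named here after its values were seen, had log2 fold changes of 0.06 to 0.20 and was called in none of the 4. The medians were -0.30, -0.48, -0.19 and -0.37, against -0.12, -0.11, 0.04 and 0.02 over all genes. SMURF2, a ubiquitin ligase of the pathway, fell in all 4 and went from 99.0 ± 3.79 to 54.9 ± 5.95 RPKM at 10 μM 6 h. SMAD7 and SMAD6, inhibitory SMADs induced by the pathway itself, fell in 4 and 3 of the comparisons, SMAD7 from 2.50 ± 0.164 to 0.888 ± 0.140 RPKM at 10 μM 24 h. In Ramos cells only SMURF2 was called, which rose by 0.30 ± 0.08 at 0.5 μM 6 h.

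Among ligands, receptors and antagonists, genes were called in either direction. Of 5 BMP ligands tested in HCT116 cells 0 to 1 rose and 0 to 2 fell per comparison, where 8.84% to 19.5% of all genes rose and 10.8% to 31.8% fell. BMP4, a secreted ligand, went from 87.2 ± 4.60 to 68.3 ± 2.96 RPKM at 10 μM 24 h, a fall of 0.35 ± 0.06 that also passed at 2 μM 24 h, and was not called at 6 h (0.12 and 0.06). Of 5 or 6 BMP receptors tested, 3 fell at 2 μM 6 h, where 31.8% of all genes did. Among them was ACVR2B, an activin and BMP receptor, which went from 8.33 ± 0.186 to 3.33 ± 0.473 RPKM. At 10 μM 6 h 1 fell (21.2% of all genes), and at 24 h 1 fell at 2 μM (10.8%) and 1 at 10 μM (15.7%). ACVR2B was the one that fell each time, by 0.99, 0.28 and 0.30. Receptors that rose at 24 h were 1 at 2 μM (16.6% of all genes) and 2 at 10 μM (19.5%). Of 3 antagonists CHRD, which encodes chordin, fell at 6 h by 1.11 ± 0.16 at 2 μM. TWSG1, which encodes a secreted BMP-binding protein, rose at 2 μM 6 h (0.23), 2 μM 24 h (0.16) and 10 μM 24 h, there from 20.8 ± 0.0720 to 27.8 ± 1.34 RPKM, and with an equal sum per library no antagonist rose. Among all genes 15.5%, 16.6% and 19.5% rose in those comparisons with the values as deposited. Without replicate 3 at 10 μM 6 h, 1 ligand, 1 receptor and 2 antagonists rose and 0, 2 and 1 fell, in place of none that rose and 0, 1 and 1 that fell. The share of all genes called without that library is not given, so these counts cannot be set against it. In Ramos cells FST, which encodes the antagonist follistatin, fell at 6 h by 0.91 ± 0.23 at 0.5 μM and 0.99 ± 0.20 at 2.5 μM. Its mean was 0.948 RPKM untreated and 0.278 and 0.229 RPKM in those groups. FST was thus near the floor and passed the filter only through the untreated group, where it was high. BMP7 rose in Ramos cells by 0.78 ± 0.07 at 2.5 μM 6 h, to 64.6 ± 1.68 RPKM.

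**Figure D5:**
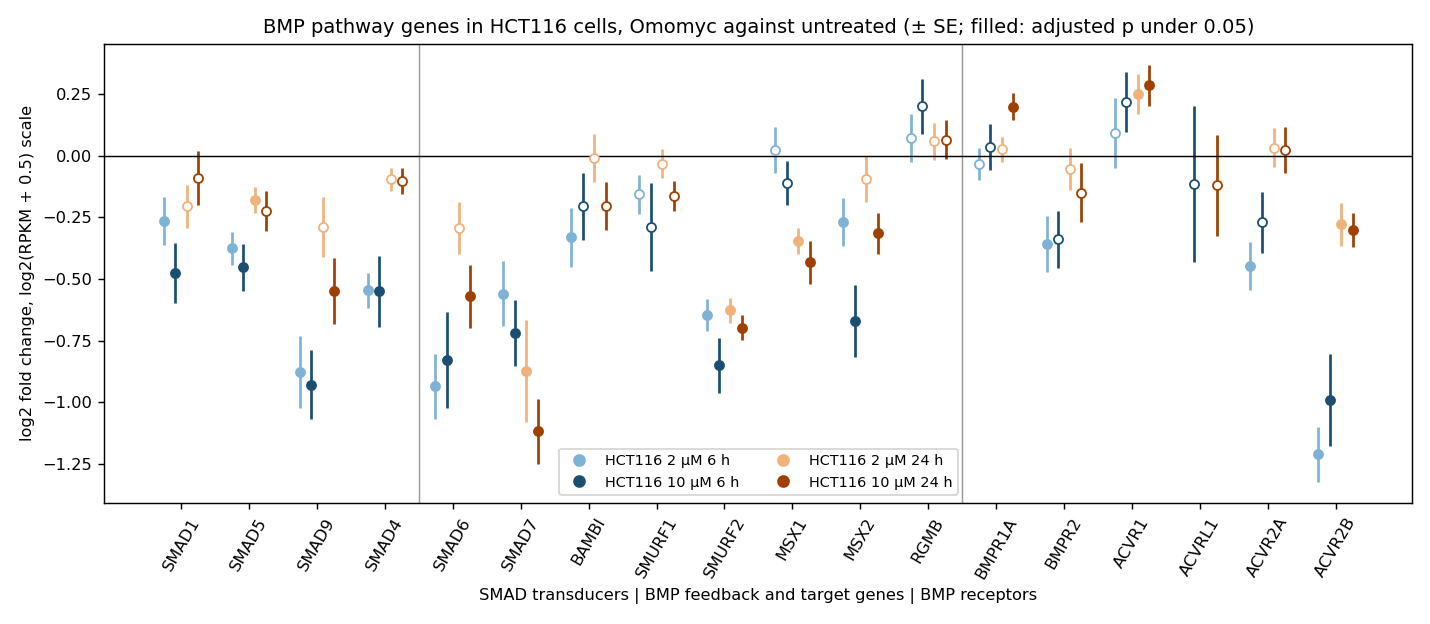
Log2 fold change (y axis, log2(RPKM + 0.5) scale, ± SE) of the tested SMAD transducers, BMP feedback and target genes and BMP receptors (x axis, in that order) in the 4 Omomyc groups of HCT116 cells against untreated cells; filled points have an adjusted p under 0.05. All 4 SMAD transducers are filled and negative at 6 h, and no feedback or target gene is filled above 0.

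Other helix-loop-helix genes were mixed. Among HES, HEY and BHLHE repressors, HES1, a Notch target, fell in all 4 HCT116 comparisons, from 14.9 ± 0.595 to 6.36 ± 0.881 RPKM at 10 μM 6 h. BHLHE40, a stress and clock repressor, rose in all 4, from 9.30 ± 0.405 to 34.2 ± 5.38 RPKM at 2 μM 6 h. In Ramos cells HES6 rose at 6 h at either dose, by 1.24 ± 0.22 at 0.5 μM. Of 25 tissue-restricted factors, 5 passed the filter in HCT116 cells and 2 to 3 in Ramos cells. LYL1 fell at 2 μM 6 h, from 0.712 ± 0.203 to 0.307 ± 0.115 RPKM, and MESP1 at 10 μM 6 h in HCT116 cells, and both calls were lost with median-ratio scaling and with quantile normalization. LYL1 was near the minimum of 0.5 RPKM in HCT116 cells, and at 2 μM 6 h it passed only through the untreated group, where it was high. In Ramos cells SCX rose and LYL1 fell at 2.5 μM 6 h, the latter a call lost with an equal sum.

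Of 5 cell cycle inhibitors, genes that E proteins are known to activate and ID proteins to restrain, none rose in HCT116 cells. At 2 μM 6 h, 10 μM 6 h, 2 μM 24 h and 10 μM 24 h 4, 3, 1 and 2 fell, where 31.8%, 21.2%, 10.8% and 15.7% of all genes did. CDKN1A, a p53 target and inhibitor of cyclin-dependent kinases, went from 70.4 ± 4.68 to 41.4 ± 3.19 RPKM at 10 μM 6 h, and CDKN1C fell by 1.45 ± 0.16 at 2 μM 6 h. Of 4 tested in Ramos cells at 0.5 μM 6 h, CDKN1A, CDKN2A and CDKN2B rose and CDKN1B fell, by 0.82 ± 0.11. At that dose and time 23.6% of all genes were called in either direction. CDKN2B was near the floor, at 0.542 ± 0.304 RPKM (SD, n = 3) in untreated Ramos cells. With 2.5 μM at 6 h CDKN2A rose and CDKN1B fell, where 27.9% of all genes were called. None of the 4 was called at 24 h, where 0.0146% (0.5 μM) and 4.61% (2.5 μM) of all genes were. Of 12 B cell genes linked to TCF3 and tested in Ramos cells, 6 rose and 2 fell at 0.5 μM 6 h and 6 rose and 1 fell at 2.5 μM 6 h, where 23.6% and 27.9% of all genes were called in either direction. With other scalings 4 to 7 rose at 2.5 μM 6 h. VPREB3, a pre-B cell receptor chain gene, rose by 1.31 ± 0.08 and CCND3, a cyclin, by 0.65 ± 0.05 at 2.5 μM 6 h. EBF1, a B cell lineage factor, fell by 0.63 ± 0.10. At 24 h 1 of the 12 was called at 2.5 μM, CD79B, where 4.61% of all genes were called. At 0.5 μM none of the 12 was, where 0.0146% of all genes were.

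The genes most like each member were ranked by Pearson correlation of log2(RPKM + 0.5) over the 15 libraries of a line, among 11678 genes in HCT116 cells and 10697 in Ramos cells. For ID1 in HCT116 cells the closest were MAP3K1, WDFY1, PKP4, IL17RD and PTGR1 (r = 0.97 to 0.98). For ID2 they were ID3, CYP24A1, KIAA0040, PDLIM5 and RHOBTB3 (0.94 to 0.96), and for ID3 KIAA0040, CYP24A1, ID2, USP46 and SOX4 (0.96 to 0.98). ID2 and ID3 thus ranked among the 3 nearest genes of each other, and ID1 correlated with ID2 at 0.74 and with ID3 at 0.85. In Ramos cells, where the members varied little, the nearest genes reached 0.79 to 0.87. ID1 and ID3 correlated at 0.83, and ID2 at 0.47 and 0.53 with ID1 and ID3. These are descriptions over libraries that share groups and scaling.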

How the data were processed

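Bulk RNA-Seq of 30 libraries in 10 groups of 3 was used. The authors deposited 1 table of RPKM values. RSEM is named in the submitters' processing notes without a version, and the aligner, build and annotation are not given in the sources used here. Gene IDs were named from GENCODE 29 (57388 of 57992 matched), and promoters came from RefSeq on GRCh38.p14. Groups follow the labels, which do not say that replicates were separate cultures, so p-values measure only the spread between these libraries. Genes with a mean of at least 0.5 RPKM over the libraries compared were tested on log2(RPKM + 0.5) with limma 3.58.1 (R 4.3.3, empirical Bayes with a trend), Benjamini-Hochberg adjusted over all genes tested, and called at an adjusted p under 0.05. The fit was tested on simulated data. Single values and within-library ratios had the two-sided exact permutation test. Every E protein was named. From the other gene lists, genes were picked out of the up to 4 called members with the largest changes per line, and not all of those are named. The 5 genes most like each member were named as well. The alternatives were pseudocounts of 0.1 and 1, no filter or a minimum of 2 RPKM, median-ratio, quantile and equal-sum scaling, no trend, all groups of a line in 1 fit, a replicate block and each library left out. The list counts under other scalings, and without HCT116 replicate 3 at 10 μM and 6 h, were added after seeing the data. The members and lists were chosen with earlier results of these data known.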

Additional observations from a re-analysis of the deposited data

Results flagged for a closer look

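The change from untreated cells differed between the lines for ID1, ID2 and ID3, as tested by limma's interaction term. The Ramos change at 2.5 μM was subtracted from the HCT116 change, on the log2 scale. The doses were not equal between the lines, and line and delivery reagent cannot be told apart. At 6 h the differences for 2 μM in HCT116 cells were -2.65 (ID1, adjusted p = 1.16e-06), -1.62 (ID2, 5.64e-06) and -2.13 (ID3, 6.03e-08). For 10 μM at 6 h they were -2.72 (ID1, adjusted p = 7.85e-08), -1.97 (ID2, 4.95e-06) and -2.12 (ID3, 7.85e-08). At 24 h the values for 2 μM were -1.55 (ID1, adjusted p = 1.46e-05), -1.64 (ID2, 5.92e-07) and -2.00 (ID3, 5.73e-07). For 10 μM at 24 h they were -1.83 (ID1, adjusted p = 1.72e-06), -2.31 (ID2, 1.73e-07) and -2.42 (ID3, 1.73e-07).

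Levels also differed between the times for 2 members, as tested directly between the 24 h and 6 h groups of a dose. No untreated group was matched to either time, so Omomyc and time in culture cannot be told apart here. ID1 in HCT116 cells was 1.19 higher at 24 h at 2 μM (adjusted p = 0.000502 by limma) and 0.97 higher at 10 μM (0.00476), in 3 of 3 libraries above all those of 6 h at either dose. ID3 in Ramos cells was 0.10 higher at 24 h at 2.5 μM (adjusted p = 0.0457 by limma), again without overlap, and this call was lost in 10 of 16 alternatives (adjusted p up to 0.155).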

How the results depend on the processing

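In HCT116 cells ID1, ID2 and ID3 stayed lower and past the threshold in 192 of 192 alternatives to the comparisons with untreated cells, and the interactions with the line in 264 of 264. The Ramos calls were less stable: of the alternatives to the comparisons with untreated cells 159 kept their side of the threshold, 35 lost the call and 13 gained it. The number of members called at 0.5 μM 6 h was 3, and 1 with quantile normalization and without the trend. Leaving out a library gave 1 to 3, with 1 without untreated replicate 1 or 2 or treated replicate 2 or 3. At 2.5 μM 6 h it was 1, but 0 with no filter, median-ratio scaling or quantile normalization and 3 with a minimum of 2 RPKM, an equal sum or all groups in 1 fit. Leaving out a library gave 0 to 1, with 0 without untreated replicate 1 or 2 or treated replicate 2 or 3. ID1, the member called there, lost its call with any 1 library left out, and the count of 1 was then ID3 (without untreated replicate 3) or ID2 (without treated replicate 1). At 2.5 μM 24 h it was 1, but 0 with no filter, median-ratio scaling, quantile normalization or no trend, 2 with a minimum of 2 RPKM or all groups in 1 fit and 3 with an equal sum. Leaving out any 1 of the 3 treated libraries gave 0, and any untreated one 1. The cause was not tested.

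Between times, 2 members in place of 1 were called in HCT116 cells at 2 μM with an equal sum (1 to 2 with a library left out, 2 without replicate 2 at 6 h) and at 10 μM with all groups in 1 fit. In Ramos cells at 2.5 μM the count was 0 in place of 1 with no filter, median-ratio scaling or all groups in 1 fit. There it was 0 to 1 with a library left out, and 0 without replicate 1 or 2 at 6 h or any replicate at 24 h. Between HCT116 doses at 24 h it was 0 in place of 1 with no filter, no trend or all groups in 1 fit, and 0 to 1 with a library left out, 0 without replicate 1 at 10 μM.

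With an equal sum the sign turned for ID2 between times in HCT116 cells at 2 μM (0.11), ID3 at 10 μM (0.096), ID2 in Ramos cells at 2.5 μM (0.021), ID3 between HCT116 doses at 6 h (-0.14), ID1 between Ramos doses at 6 h (0.00030) and ID3 between the untreated lines (0.18). With quantile normalization it turned for ID3 between times in Ramos cells at 0.5 μM (0.019) and ID1 between HCT116 doses at 6 h (0.0066). None of these passed the test under the alternative. With a library left out, the values between times ranged as follows, all on the log2 scale. ID2 in HCT116 cells at 2 μM had -0.19 to 0.0037, ID1 and ID3 in Ramos cells at 0.5 μM had -0.078 to 0.019 and -0.045 to 0.020, and ID2 in Ramos cells at 2.5 μM had -0.11 to 0.012. Between doses at 6 h ID1 and ID3 in HCT116 cells had -0.24 to 0.024 and -0.053 to 0.067, and ID1 in Ramos cells -0.091 to 0.00050. Within a library, ID2 minus ID3 at HCT116 10 μM 24 h had -0.0064 to 0.034, ID1 minus ID2 at Ramos 2.5 μM 6 h -0.075 to 0.087, ID1 minus ID3 at Ramos 0.5 μM 24 h -0.012 to 0.065 and the ID to E protein ratio at Ramos 2.5 μM 24 h -0.048 to 0.034.

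The same replicate numbers occur in every group, and a fit with the replicate number as a block was run. In the comparisons with untreated cells, the lowest correlation between the deviations of same-numbered libraries was -0.22 to 0.057. At HCT116 10 μM 6 h the pairs were all weakly positive (0.057, 0.148 and 0.085). Whether same-numbered libraries shared a batch cannot be told from so few pairs. With the block 0 members in place of 1 were called in Ramos cells at 2.5 μM 6 h, at 2.5 μM 24 h and between those times, and 2 in place of 1 between times in HCT116 cells at 2 μM. 

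Over all genes, an equal sum moved the median log2 fold change from -0.12 to -0.42 (HCT116 2 μM 6 h), from -0.11 to -0.56 (HCT116 10 μM 6 h), from 0.02 to -0.15 (HCT116 10 μM 24 h), from 0.05 to 0.24 (Ramos 2.5 μM 24 h) and from 0.09 to 0.65 (the untreated lines). The number of all genes called moved by more than 1.5 times at HCT116 10 μM 6 h (4439, and 7235 with an equal sum), HCT116 2 μM 24 h (4071, and 2282 with no filter and 1113 with all groups in 1 fit), HCT116 10 μM 24 h (5220, and 2535 with all groups in 1 fit), Ramos 0.5 μM 6 h (3209, and 2008 with no filter) and Ramos 2.5 μM 24 h (627, and 24 without the trend to 5362 with an equal sum). Between HCT116 doses at 6 h it was 0, and 137 with all groups in 1 fit, with none of the members among them. RPKM without counts leaves the precision of ID4, below 1 RPKM throughout, unknown.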
